A study of Mus musculus with 9 samples.

Results

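The genes described here are 34 genes of protein folding in the endoplasmic reticulum (ER) and of the unfolded protein response. They were chosen by symbol, with earlier results of these data known. They comprise ER chaperones and co-chaperones, enzymes of disulfide bond formation, stress sensors, the machinery that returns misfolded proteins to the cytosol for degradation, and components of translocation and transport. Of the 34 symbols, 33 were found among the 55335 genes of the expression table. The symbol Vimp was not among them. RefSeq lists Vimp as a synonym of Selenos, which the table holds, so the values of Selenos are given beside the other genes and are not counted with them. Of the 33 genes, 32 had at least 1 FPKM in at least 3 libraries and were tested, and Derl3 stayed below that level. FPKM counts sequenced fragments relative to the length of the transcript and to the size of the library, so levels of different genes can be compared within a library.

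Peritoneal macrophages of mice were kept in culture for 1 h and then stimulated for 4 h. One group received 1 µg/mL LPS together with 5% EtOH (ethanol), another received 1 µg/mL LPS together with 100 µM CPZ, an abbreviation that the labels do not spell out, and the control group received 1 µg/mL LPS alone. LPS is a bacterial cell wall component that activates macrophages, and all 3 groups received it, so no comparison here is against unstimulated cells. Each group holds 3 libraries of total RNA, and 3 RNA samples were pooled for each library. Strain, age and sex of the mice are not given in the sources used here, and neither is a vehicle for CPZ. The series title names alcohol, macrophage polarization and TRPV1 as its subject. The comparisons were LPS+EtOH against LPS, LPS+CPZ against LPS, and LPS+CPZ against LPS+EtOH, and the first and second of these share the LPS libraries.

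Proteins that enter the ER are folded by chaperones such as BiP (Hspa5), joined by disulfide bonds with the help of protein disulfide isomerases, and sent back to the cytosol for destruction when folding fails. The sensors of the ER membrane, IRE1 (Ern1), ATF6 (Atf6) and PERK (Eif2ak3), respond to unfolded proteins: IRE1 splices the Xbp1 transcript, ATF6 is cut to release a transcription factor, and PERK slows translation. Activated macrophages and antibody-secreting plasma cells both depend on this system, since they secrete much protein. Gene-level FPKM shows neither the splicing of Xbp1 nor protein amounts, phosphorylation or cleavage.

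ATF6 and XBP1 are known to act through the ER stress response element (ERSE), which was searched here as CCAAT and CCACG with 9 bases of any kind between them, on both strands. The windows ran from 250 bases before to 50 after each RefSeq gene start (mouse build GRCm38.p6), and 28 of the 34 listed genes had one. Windows were not given for Hyou1, Atf6, Manf, Derl1, Sec61a1 and Ostc. The element was present in 10 of these 28 genes and in 39 of 32851 windows of all genes (0.119%). The sites are shown because this element links the sensors to the promoters of their target genes; most of the 28 genes lacked it. Each is written in the direction of the element, with the element in capitals and 5 flanking bases on either side.
Hspa5 (chr2:34772020-34772048, plus strand): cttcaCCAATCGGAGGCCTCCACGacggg
Hsp90b1 (chr10:86705528-86705556, plus strand): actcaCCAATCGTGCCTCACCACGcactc
Hsp90b1 (chr10:86705633-86705661, minus strand): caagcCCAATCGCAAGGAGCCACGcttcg
Calr (chr8:84847070-84847098, plus strand): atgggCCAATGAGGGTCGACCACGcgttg
Canx (chr11:50325795-50325823, minus strand): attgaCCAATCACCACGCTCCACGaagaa
Dnajc3 (chr14:118937822-118937850, plus strand): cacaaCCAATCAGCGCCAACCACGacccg
Pdia6 (chr12:17266486-17266514, plus strand): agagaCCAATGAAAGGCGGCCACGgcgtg
Ero1b, the RefSeq symbol of Ero1lb (chr13:12565677-12565705, minus strand): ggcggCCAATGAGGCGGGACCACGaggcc
Creld2 (chr15:88819515-88819543, minus strand): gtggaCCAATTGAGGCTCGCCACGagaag
Syvn1 (chr19:6046527-6046555, plus strand): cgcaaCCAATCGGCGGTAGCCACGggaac
Derl3 (chr10:75893237-75893265, minus strand): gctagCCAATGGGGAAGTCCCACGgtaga

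All 11 sites lay upstream of the gene start, the nearest 26 to 44 bases before it (Syvn1) and the farthest 194 to 212 bases before it (the second Hsp90b1 site). The related element ERSE-II, searched as ATTGG and CCACG with 1 base of any kind between them, was found in 12 of the 32851 windows (0.0365%), among them those of Dnajb11 and Herpud1. The XBP1 core element TGACGTGG was found in 222 windows (0.676%), among them that of Sec24d. The window of Dnajb9 held none of these but held the shorter CCACG at 2 places, which is the end of both ERSE and ERSE-II and occurs in 10765 windows (32.8%). The further sites of Herpud1, Sec24d and Dnajb9 are shown in the same way, with the searched letters in capitals.
Herpud1, ERSE-II (chr8:94386372-94386392, plus strand): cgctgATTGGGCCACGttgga
Sec24d, XBP1 core (chr3:123267465-123267482, plus strand): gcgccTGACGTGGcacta
Dnajb9, CCACG (chr12:44210074-44210088, minus strand): gccagCCACGggctc
Dnajb9, CCACG (chr12:44210167-44210181, minus strand): gttttCCACGtgcgc

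Total FPKM per library was 302126 to 363356, and the number of fragments behind it is unknown. Libraries differed by group in how many genes they detected: 8024 to 8366 genes reached 1 FPKM in LPS+EtOH, 10135 to 10625 in LPS+CPZ and 11096 to 11266 in LPS. Globin transcripts took 0.172 to 0.221% of total FPKM in LPS+EtOH, 0.0452 to 0.0972% in LPS+CPZ and 11.5 to 29.4% in LPS. Macrophage markers differed between the groups: the 8 genes of the macrophage list summed to 2757 to 3061 FPKM in LPS+EtOH, 1113 to 1305 in LPS+CPZ and 1628 to 2111 in LPS. Most of the LPS+EtOH sum came from Cd14. Cd14 and Cd68 were higher in LPS+EtOH than in LPS, with no overlap. Adgre1, Lyz2, Fcgr1 and Mertk were lower there, also with no overlap, and Csf1r and Itgam overlapped. The macrophage sum is therefore not read as macrophage content. The 6 genes of the peritoneal macrophage list summed to 2.17 to 4.49 FPKM in LPS+EtOH, 20.8 to 34.8 in LPS+CPZ and 91.5 to 119 in LPS, and Gata6, a defining gene of resident peritoneal macrophages, was below 0.5 FPKM in every library. Summed over 9 neutrophil markers, levels were 43740 to 48310 FPKM in LPS+EtOH, 6383 to 6889 in LPS+CPZ and 3855 to 5421 in LPS, most of it from S100a8 and S100a9. Ly6g, a more specific neutrophil marker, was at 147 to 170 FPKM in LPS+EtOH, 239 to 299 in LPS+CPZ and 11.8 to 21.2 in LPS. It was the only one of the 9 that was highest in LPS+CPZ, and all the others were highest in LPS+EtOH. Cxcr2 was lower in every LPS+CPZ library than in any LPS library, and Csf3r overlapped between those groups. The neutrophil markers thus gave different orders of the groups. B cell markers summed to 37.1 to 59.2 FPKM in LPS+EtOH, 147 to 195 in LPS+CPZ and 498 to 745 in LPS, and T and NK cell markers to 1.21 to 2.16 FPKM in LPS+EtOH, 19.5 to 29.4 in LPS+CPZ and 67.1 to 87.7 in LPS. Plasma cells make the proteins described here in large amounts. Their 8 markers, all in the table, summed to 201 to 263 FPKM in LPS+EtOH, 1468 to 1839 in LPS+CPZ and 1778 to 2589 in LPS, most of it from the immunoglobulin genes Ighm and Igkc, which B cells also express. A mean of at least 1 FPKM was reached by 4 of them in LPS+EtOH, 5 in LPS+CPZ and 7 in LPS. Tnfrsf17 was at 0 to 0.191 FPKM in LPS+EtOH, 0 in LPS+CPZ and 0 to 0.031 in LPS, and Jchain was at 0 to 0.133 FPKM in LPS+EtOH, 0.113 to 0.358 in LPS+CPZ and 1.012 to 3.796 in LPS. Fewer cells of a type and less RNA per cell cannot be told apart in such bulk samples, and the part of these marker differences in the results below was not tested.

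Most genes moved in each comparison, so the ER genes were read against that background. Over all 11721 genes tested, the median log2 change was -0.82 in LPS+EtOH against LPS, -0.33 in LPS+CPZ against LPS and 0.55 in LPS+CPZ against LPS+EtOH. Rescaling every library by its median ratio to the average library brought these medians to 0.02, -0.06 and 0.04. Both readings are therefore given: FPKM as deposited, and the same test after this median-ratio scaling. All changes are differences of log2(FPKM + 1), so changes of genes near or below 1 FPKM appear smaller than their ratios, and a gene was called when its adjusted p in limma was below 0.05.

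In LPS+EtOH against LPS, 26 of the 32 tested ER genes were lower and 2 were higher, Dnajb9 and P4hb. That is 87.5% of them called, against 83.6% of all tested genes (64.6% lower and 19% higher). Their median log2 change was -1.09, with a range of -2.89 to 0.94. After median-ratio scaling 13 were lower and 7 higher, against 39.7% lower and 40.6% higher among all genes (80.3% called), and their median log2 change was -0.10. Of the 28 calls, 15 kept their direction and their call under that scaling. In 13 of the 26 genes the lower level held under each of 16 settings of the test, and these were Ero1lb, Pdia4, Dnajc3, Atf6, Ern1, Eif2ak3, Sel1l, Pdia6, Syvn1, Pdia3, Canx, Hyou1 and Sec24d. Of these genes, Sec24d and Eif2ak3 did not reach 1 FPKM in all 3 LPS+EtOH libraries and were tested only because of their levels in the other groups. Their calls here are given as description only. Dnajb9 was the only gene whose higher level held under all 16.

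Set against LPS, the LPS+CPZ libraries had 12 of the 32 genes lower, 4 higher and 16 not called. The share called was 50%, against 69.2% of all tested genes (48.4% lower and 20.7% higher). Their median log2 change was -0.21, with a range of -1.47 to 1.85. After median-ratio scaling 10 were higher and 7 lower, against 28.5% and 32.8% of all genes (61.4% called), and their median log2 change was 0.09. Dnajb9, Hyou1 and Edem2 were higher under all 16 settings, and Atf6, Herpud1, Ero1lb, Syvn1, Sel1l, Dnajc10 and Dnajc3 were lower under all 16.

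Between LPS+CPZ and LPS+EtOH, 27 of 32 were higher in LPS+CPZ and 1, Dnajc10, was lower. The share called was 87.5%, against 76.6% of all tested genes (61.4% higher and 15.2% lower). Their median log2 change was 0.88, with a range of -0.61 to 2.20. After median-ratio scaling 13 were higher and 5 lower, against 34.3% and 33.7% of all genes (68% called), and their median log2 change was 0.19. The 13 genes higher under all 16 settings were Hyou1, Ern1, Pdia4, Dnajc3, Ero1lb, Canx, Sec24d, Eif2ak3, Sdf2l1, Hsp90b1, Pdia3, Pdia6 and Creld2, and Dnajc10 was lower under all 16. Sec24d and Eif2ak3 are again given as description only, since their LPS+EtOH levels alone would not have had them tested.

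**Figure D1:**
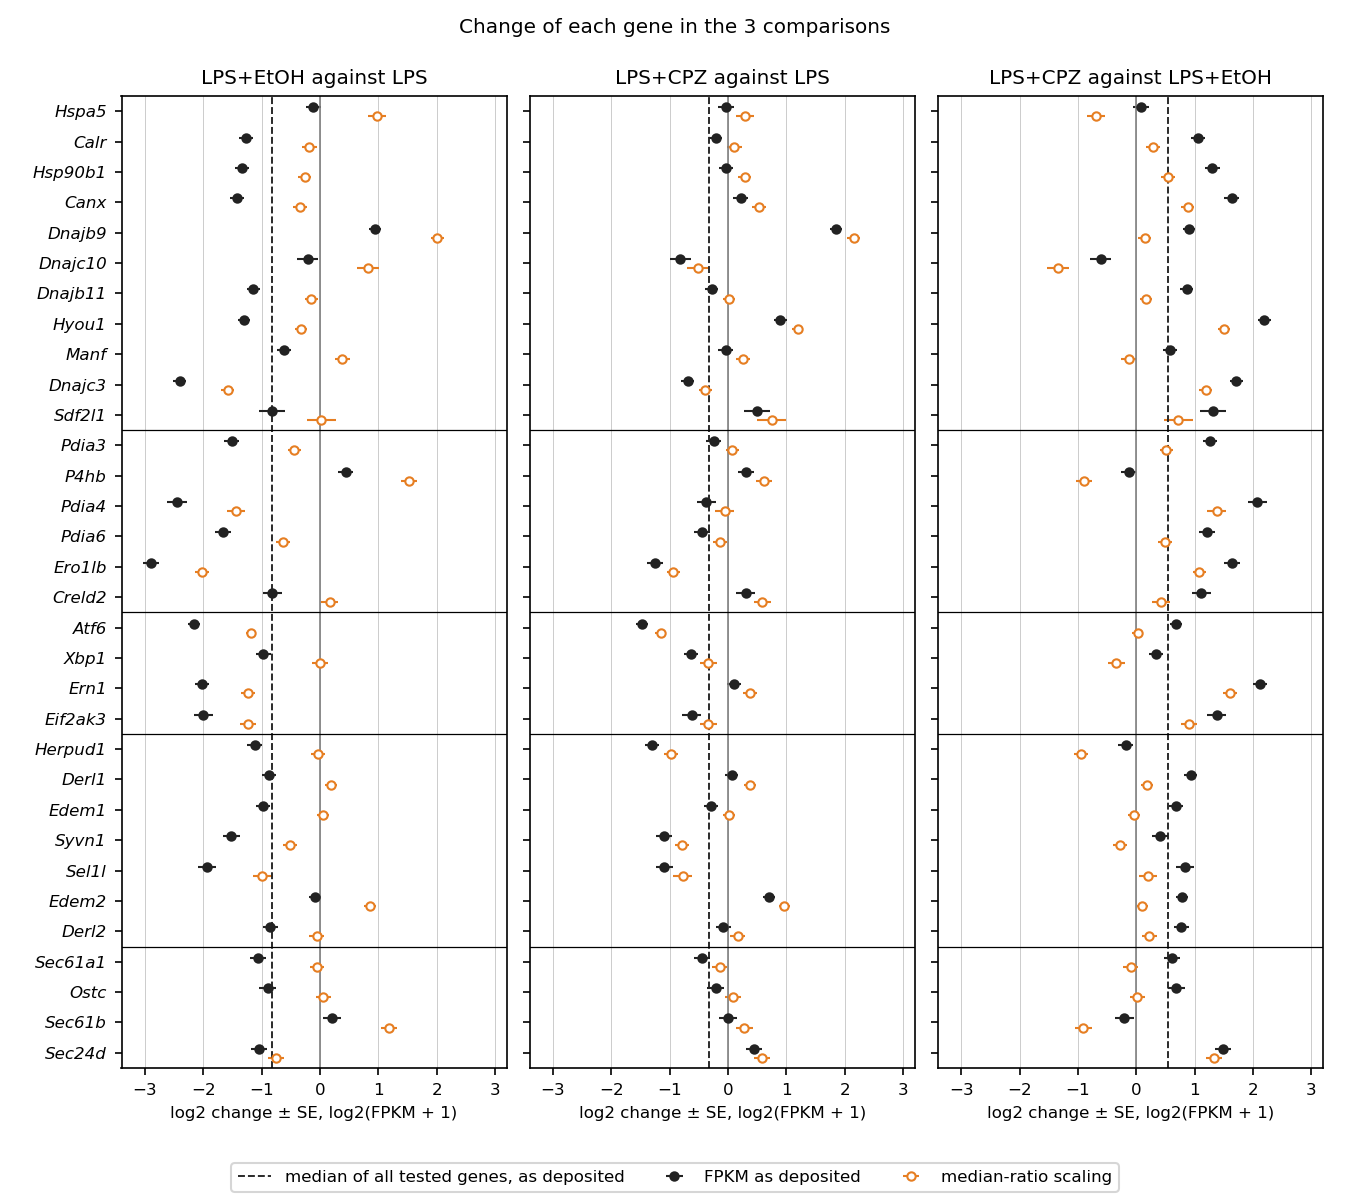
Log2 change ± SE of each of the 32 tested genes in the 3 comparisons, on the log2(FPKM + 1) scale, as deposited (filled) and after median-ratio scaling (open); the dashed line is the median of all 11721 tested genes. Dnajb9 lies right of 0 in both comparisons against LPS under either scaling, while Hspa5 lies near 0 as deposited (-0.11) and at 0.98 after scaling in LPS+EtOH against LPS.

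Of the 11 chaperone genes, 8 were lower and 1 was higher in LPS+EtOH against LPS (after median-ratio scaling 3 lower and 4 higher). With CPZ in place of EtOH, 3 were lower and 2 higher than in LPS (2 and 4 after scaling), and in LPS+CPZ against LPS+EtOH 9 were higher and 1 lower (5 and 2 after scaling). The counts by role given here and below are small, and since 64.6% of all tested genes were lower in LPS+EtOH than in LPS, 48.4% were lower in LPS+CPZ than in LPS and 61.4% were higher in LPS+CPZ than in LPS+EtOH, they are not read as particular to a role.

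Hspa5 encodes BiP, the main Hsp70 chaperone of the ER and the gene most used as a readout of the unfolded protein response. It was the most abundant of the 33 genes in every group. It had 178, 189 and 187 FPKM in the LPS+EtOH libraries, 173, 185 and 231 FPKM in the LPS+CPZ libraries and 208, 207 and 184 FPKM in the LPS libraries. The 3 groups overlapped, and the third LPS+CPZ library was the highest of all 9. Its log2 change was -0.11 ± 0.13 (SE; adjusted p = 0.45) in LPS+EtOH against LPS, -0.03 ± 0.13 (adjusted p = 0.841) in LPS+CPZ against LPS and 0.08 ± 0.13 (adjusted p = 0.603) in LPS+CPZ against LPS+EtOH. After median-ratio scaling it was called higher in LPS+EtOH than in LPS (0.98, adjusted p = 0.000162) and lower in LPS+CPZ than in LPS+EtOH (-0.69, adjusted p = 0.00237). With globin genes left out it was instead called lower in LPS+EtOH than in LPS (-0.53, adjusted p = 0.00165) and in LPS+CPZ than in LPS (-0.41, adjusted p = 0.0103). The scaling thus set the direction for this gene.

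Dnajb9 encodes ERdj4, a J-domain partner of BiP that is a target of XBP1. It had 56.5, 60.1 and 62.2 FPKM in LPS+EtOH, 111, 113 and 114 FPKM in LPS+CPZ and 28.2, 33.3 and 30.3 FPKM in LPS. The groups did not overlap, and LPS+CPZ was the highest. Its log2 change was 0.94 ± 0.11 in LPS+EtOH against LPS (adjusted p = 1.02e-05) and 1.85 ± 0.11 in LPS+CPZ against LPS (adjusted p = 3.19e-07). These were 2.01 and 2.15 after median-ratio scaling. Mean FPKM was 1.95-fold that of LPS in LPS+EtOH and 3.68-fold in LPS+CPZ. Its log2 change of 0.91 in LPS+CPZ against LPS+EtOH (adjusted p = 2.87e-05) was 0.14 after median-ratio scaling (adjusted p = 0.283).

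Hyou1 encodes GRP170, the large Hsp70-like chaperone that also serves BiP as a nucleotide exchange factor. It had 5.63, 4.88 and 5.85 FPKM in LPS+EtOH, 29.1, 27.8 and 28.7 FPKM in LPS+CPZ and 13.9, 16.4 and 14.4 FPKM in LPS. The groups did not overlap, with LPS between the other two. Hyou1 had a log2 change of -1.30 ± 0.11 in LPS+EtOH against LPS (adjusted p = 1.18e-06), 0.90 ± 0.11 in LPS+CPZ against LPS (adjusted p = 4.61e-05) and 2.20 ± 0.11 in LPS+CPZ against LPS+EtOH (adjusted p = 2.22e-07). After median-ratio scaling these were -0.32 (adjusted p = 0.0153), 1.19 (adjusted p = 7.08e-06) and 1.51 (adjusted p = 1.56e-06). The change of 2.20 was the largest rise of the 32 genes in LPS+CPZ against LPS+EtOH as deposited, a 5.23-fold higher mean FPKM, and 97.9% of all tested genes had a lower change.

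Dnajc3 encodes p58IPK, a co-chaperone of BiP and an inhibitor of PERK. It had 1.46, 1.23 and 1.47 FPKM in LPS+EtOH, 6.37, 6.65 and 7.47 FPKM in LPS+CPZ and 12.7, 11.2 and 10.9 FPKM in LPS. Mean FPKM was 8.36-fold lower in LPS+EtOH than in LPS and 1.70-fold lower in LPS+CPZ than in LPS, with no overlap between groups. The log2 changes were -2.40 ± 0.11 (adjusted p = 5.14e-08) and -0.69 ± 0.11 (adjusted p = 0.0003), and that of LPS+CPZ against LPS+EtOH was 1.71 ± 0.11 (adjusted p = 8.99e-07). After median-ratio scaling the 3 changes were -1.58, -0.39 and 1.19, all still called (adjusted p = 7.99e-07, 0.0123 and 1.11e-05).

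Hsp90b1 encodes GRP94, the Hsp90 of the ER, which folds integrins and Toll-like receptors. It had 40.7, 33.1 and 39.0 FPKM in LPS+EtOH, 85.04, 93.4 and 104.4 FPKM in LPS+CPZ and 95.5, 95.2 and 97.5 FPKM in LPS. LPS+EtOH lay below both other groups, which overlapped each other. Hsp90b1 had a log2 change of -1.34 ± 0.12 in LPS+EtOH against LPS (adjusted p = 2.04e-06; -0.26, adjusted p = 0.0592, after median-ratio scaling), -0.03 ± 0.12 in LPS+CPZ against LPS (adjusted p = 0.832) and 1.30 ± 0.12 in LPS+CPZ against LPS+EtOH (adjusted p = 7.22e-06; 0.54, adjusted p = 0.0019, after scaling).

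Calr and Canx encode calreticulin and calnexin, the lectin chaperones that hold newly made glycoproteins. Calr had 67.4, 62.9 and 68.5 FPKM in LPS+EtOH, 129, 132 and 157 FPKM in LPS+CPZ and 165, 165 and 154 FPKM in LPS. Canx had 26.8, 21.3 and 27.6 FPKM in LPS+EtOH, 81.2, 75.3 and 83.5 FPKM in LPS+CPZ and 65.8, 72.7 and 67.9 FPKM in LPS. Both were lowest in LPS+EtOH, with no overlap with LPS. The log2 change in LPS+EtOH against LPS was -1.27 ± 0.12 for Calr (adjusted p = 2.04e-06) and -1.42 ± 0.12 for Canx (adjusted p = 1.42e-06). After median-ratio scaling Canx was still lower (-0.35, adjusted p = 0.0199) and Calr was not called (-0.18, adjusted p = 0.2). Neither was called in LPS+CPZ against LPS as deposited, with adjusted p = 0.125 for Calr and 0.143 for Canx, but Canx was higher after median-ratio scaling (0.53, adjusted p = 0.00309) and Calr was lower with globin genes left out (-0.59, adjusted p = 0.000804).

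Dnajc10 encodes ERdj5, a reductase that opens disulfide bonds of proteins bound for degradation. It had 15.96, 11.7 and 17.1 FPKM in LPS+EtOH, 10.9, 8.72 and 8.58 FPKM in LPS+CPZ and 21.8, 15.8 and 14.9 FPKM in LPS. LPS+CPZ lay below both other groups, which overlapped. Its log2 change of -0.61 ± 0.18 in LPS+CPZ against LPS+EtOH (adjusted p = 0.0102) ran against the 27 genes that were higher there, and it was -0.82 ± 0.18 in LPS+CPZ against LPS (adjusted p = 0.00209). After median-ratio scaling these were -1.33 (adjusted p = 0.000154) and -0.51 (adjusted p = 0.037).

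The remaining chaperone genes were less abundant. Dnajb11, which encodes the BiP partner ERdj3, averaged 6.66 ± 0.94 FPKM in LPS+EtOH, 12.8 ± 0.33 in LPS+CPZ and 15.8 ± 0.29 in LPS (SD, n = 3 each). It was lower than in LPS in both treated groups as deposited, but its log2 change of -0.28 in LPS+CPZ (adjusted p = 0.0456) was 0.02 after median-ratio scaling and lost its call in 11 of 16 settings, among them without any 1 library of LPS or LPS+CPZ (adjusted p of 0.0714 to 0.109). Sdf2l1, a component of BiP complexes, averaged 2.61 ± 1.06 FPKM in LPS+EtOH, 7.77 ± 1.40 in LPS+CPZ and 5.20 ± 0.77 in LPS. Manf, a secreted factor that also binds BiP, averaged 8.22 ± 0.40 FPKM in LPS+EtOH, 12.9 ± 2.2 in LPS+CPZ and 13.1 ± 0.42 in LPS. Sdf2l1 was 2.98-fold and Manf 1.56-fold higher in mean FPKM in LPS+CPZ than in LPS+EtOH, and the Manf difference turned to a log2 change of -0.13 after median-ratio scaling (adjusted p = 0.355). In LPS+EtOH against LPS, Manf was called lower as deposited (-0.62, adjusted p = 0.000865). After median-ratio scaling it was called higher there (0.39, adjusted p = 0.0141).

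**Figure D2:**
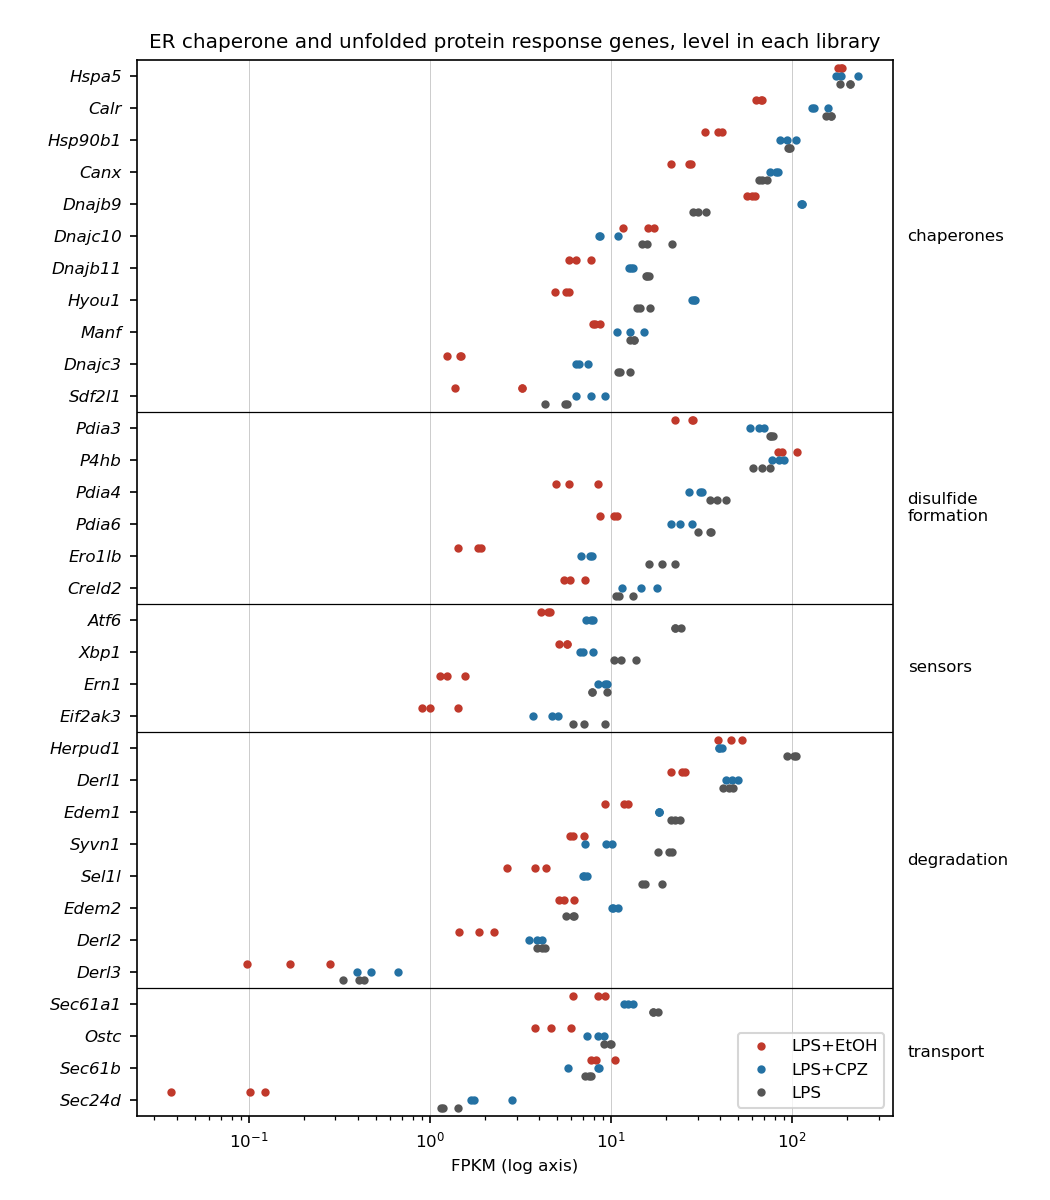
FPKM of the 33 genes in each of the 9 libraries on a log axis, grouped by role and ordered by level; each point is a library. The LPS+EtOH points of Dnajc3, Pdia4, Ero1lb, Ern1, Eif2ak3 and Sec24d lie apart to the left, the 3 groups of Hspa5 overlap, and the Dnajb9 points of LPS lie left of both treated groups.

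Among the 6 genes of disulfide bond formation, 5 were lower and 1 was higher in LPS+EtOH against LPS (4 and 1 after median-ratio scaling). Relative to LPS, LPS+CPZ had 2 lower and none higher (1 lower and 2 higher after scaling). Relative to LPS+EtOH, it had 5 higher and none lower as deposited (5 higher and 1 lower after scaling), against 61.4% of all tested genes higher.

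Ero1lb encodes the ER oxidase ERO1-beta, which recharges protein disulfide isomerases and is best known from secretory cells. It had 1.83, 1.43 and 1.92 FPKM in LPS+EtOH, 6.85, 7.85 and 7.68 FPKM in LPS+CPZ and 16.2, 19.2 and 22.4 FPKM in LPS. The groups did not overlap, and the order was LPS+EtOH, LPS+CPZ, LPS from low to high. Its log2 change of -2.89 ± 0.14 in LPS+EtOH against LPS (adjusted p = 5.21e-08) was the largest fall of the 32 genes, an 11.2-fold lower mean FPKM, and 2.79% of all tested genes had a lower change. With CPZ it was -1.25 ± 0.14 against LPS (adjusted p = 2.06e-05), a 2.58-fold lower mean. After median-ratio scaling the 2 changes were -2.02 (adjusted p = 2.08e-07) and -0.94 (adjusted p = 6.96e-05).

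Pdia4 encodes ERp72, a protein disulfide isomerase. It had 8.41, 5.88 and 4.96 FPKM in LPS+EtOH, 26.8, 31.6 and 30.9 FPKM in LPS+CPZ and 38.3, 35.1 and 43.1 FPKM in LPS. The groups did not overlap. Pdia4 had a log2 change of -2.45 ± 0.17 in LPS+EtOH against LPS (adjusted p = 2.84e-07) and 2.08 ± 0.17 in LPS+CPZ against LPS+EtOH (adjusted p = 2.85e-06). After median-ratio scaling these were -1.44 (adjusted p = 1.57e-05) and 1.38 (adjusted p = 4.22e-05).

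Pdia3 (ERp57), which works with calnexin and calreticulin, and Pdia6 (P5) showed a smaller difference in the same direction. Pdia3 averaged 26.3 ± 3.2 FPKM in LPS+EtOH, 64.5 ± 5.9 in LPS+CPZ and 76.5 ± 1.4 in LPS, and Pdia6 averaged 9.94 ± 1.15 FPKM in LPS+EtOH, 24.4 ± 3.3 in LPS+CPZ and 33.6 ± 2.9 in LPS (SD, n = 3 each). In LPS+EtOH against LPS their log2 changes were -1.51 ± 0.12 (adjusted p = 8.93e-07) and -1.67 ± 0.13 (adjusted p = 8.05e-07), and after median-ratio scaling -0.44 (adjusted p = 0.00439) and -0.63 (adjusted p = 0.00102). Creld2, a disulfide isomerase induced by ER stress, averaged 6.20 ± 0.85 FPKM in LPS+EtOH, 14.8 ± 3.2 in LPS+CPZ and 11.7 ± 1.4 in LPS. Its log2 change in LPS+EtOH against LPS was -0.81 as deposited (adjusted p = 0.000765) and 0.17 after median-ratio scaling (adjusted p = 0.332).

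P4hb encodes PDI, by mean FPKM the most abundant of the 6 in LPS+EtOH and in LPS+CPZ. It had 106, 87.3 and 83.4 FPKM in LPS+EtOH, 77.3, 84.3 and 89.9 FPKM in LPS+CPZ and 75.0, 67.7 and 60.5 FPKM in LPS. Both treated groups lay above LPS and overlapped each other. The log2 change in LPS+EtOH against LPS was 0.44 ± 0.14 (adjusted p = 0.0107), and it was 1.52 after median-ratio scaling (adjusted p = 4.08e-06). The call was lost with values scaled as TPM, with globin genes left out, and without the first LPS+EtOH library, the highest of the 9. In LPS+CPZ against LPS P4hb was not called as deposited (0.31, adjusted p = 0.0643). That change was 0.62 after median-ratio scaling (adjusted p = 0.00324) and -0.06 with globin genes left out. Against LPS+EtOH, LPS+CPZ was called lower only after median-ratio scaling (-0.90, adjusted p = 0.00028). As deposited, P4hb and Pdia4, both isomerases, thus moved in opposite directions in LPS+EtOH against LPS.

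The 4 sensor genes, counting Xbp1 with its activator, were lower in LPS+EtOH than in LPS, 3 of them also after median-ratio scaling, against 64.6% of all tested genes lower as deposited and 39.7% after scaling. Relative to LPS, LPS+CPZ had 3 lower and none higher as deposited (1 lower and 1 higher after scaling). All 4 were higher in LPS+CPZ than in LPS+EtOH as deposited (2 after scaling). Their summed level was 12.3 ± 0.84 FPKM in LPS+EtOH, 28.4 ± 1.3 in LPS+CPZ and 50.7 ± 1.2 in LPS (SD, n = 3 each).

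Ern1, which encodes the sensor kinase and RNase IRE1-alpha, had 1.56, 1.13 and 1.24 FPKM in LPS+EtOH, 8.496, 9.496 and 9.192 FPKM in LPS+CPZ and 9.54, 7.87 and 7.84 FPKM in LPS. LPS+EtOH lay below both other groups, which overlapped. Ern1 had a log2 change of -2.03 ± 0.12 in LPS+EtOH against LPS (adjusted p = 1.37e-07) and 2.13 ± 0.12 in LPS+CPZ against LPS+EtOH (adjusted p = 4.26e-07), which were -1.23 and 1.61 after median-ratio scaling (adjusted p = 5.36e-06 and 2.36e-06). Its log2 change in LPS+CPZ against LPS was 0.10 ± 0.12 (adjusted p = 0.481) as deposited, and 0.38 after that scaling (adjusted p = 0.018).

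Atf6, which encodes the membrane-bound sensor and transcription factor, had 4.595, 4.084 and 4.487 FPKM in LPS+EtOH, 7.75, 7.93 and 7.28 FPKM in LPS+CPZ and 22.4, 24.2 and 22.4 FPKM in LPS. It was lower than in LPS in both treated groups, by 5.24-fold in LPS+EtOH and 3.01-fold in LPS+CPZ. Its log2 change of -1.47 ± 0.10 in LPS+CPZ against LPS (adjusted p = 9.31e-07) was the largest fall of the 32 genes in that comparison. After median-ratio scaling its log2 changes against LPS were -1.18 in LPS+EtOH and -1.16 in LPS+CPZ (adjusted p = 1.25e-06 and 3.97e-06). Between LPS+CPZ and LPS+EtOH the log2 change was 0.68 (adjusted p = 0.000123) as deposited and 0.02 after median-ratio scaling (adjusted p = 0.829). In LPS+CPZ the mean FPKM of Ern1 was 1.08-fold that of LPS, while that of Atf6 was 3.01-fold lower.

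Eif2ak3, which encodes PERK, the sensor that phosphorylates eIF2-alpha, had 1.43, 0.907 and 0.993 FPKM in LPS+EtOH, 3.71, 5.08 and 4.69 FPKM in LPS+CPZ and 6.16, 7.11 and 9.19 FPKM in LPS. The groups did not overlap. Eif2ak3 had a log2 change of -2.00 ± 0.16 in LPS+EtOH against LPS (adjusted p = 8.79e-07) and -0.62 ± 0.16 in LPS+CPZ against LPS (adjusted p = 0.0061). After median-ratio scaling the first of these was -1.24 (adjusted p = 1.84e-05) and the second -0.34 (adjusted p = 0.0612). Eif2ak3 did not reach 1 FPKM in all LPS+EtOH libraries, so its calls in comparisons with LPS+EtOH are given as description only.

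Xbp1, the transcription factor gene whose transcript IRE1 splices, had 5.71, 5.70 and 5.13 FPKM in LPS+EtOH, 7.01, 6.73 and 7.96 FPKM in LPS+CPZ and 13.8, 10.4 and 11.3 FPKM in LPS. Both treated groups lay below LPS. The log2 change was -0.97 ± 0.13 in LPS+EtOH against LPS (adjusted p = 2.83e-05) and -0.63 ± 0.13 in LPS+CPZ against LPS (adjusted p = 0.00111). After median-ratio scaling neither was called, with adjusted p = 0.983 and 0.0612. Between LPS+CPZ and LPS+EtOH it was 0.34 as deposited (adjusted p = 0.0309) and -0.34 after that scaling (adjusted p = 0.054). The call was also lost without replicate 1 or 3 of LPS+EtOH or of LPS+CPZ, with adjusted p of 0.0503 to 0.11.

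Of the 7 tested genes of ER-associated degradation, 6 were lower and none higher in LPS+EtOH against LPS (2 lower and 1 higher after median-ratio scaling), against 64.6% of all tested genes lower (39.7% after scaling). Relative to LPS, LPS+CPZ had 3 lower and 1 higher (3 and 2 after scaling), and relative to LPS+EtOH 6 were higher and none lower as deposited (none higher and 1 lower after scaling).

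Herpud1, a membrane scaffold of the degradation complex and a strongly stress-induced gene, had 45.7, 38.9 and 52.9 FPKM in LPS+EtOH, 41.0, 39.4 and 39.5 FPKM in LPS+CPZ and 93.4, 105.1 and 102.0 FPKM in LPS. Both treated groups lay below LPS and overlapped each other. Herpud1 had a log2 change of -1.12 ± 0.13 in LPS+EtOH against LPS (adjusted p = 1.03e-05; -0.04, adjusted p = 0.776, after median-ratio scaling). For LPS+CPZ against LPS it was -1.30 ± 0.13 (adjusted p = 9.68e-06), and -0.98 after that scaling (adjusted p = 6.9e-05), when it was also called lower in LPS+CPZ than in LPS+EtOH (-0.95, adjusted p = 7.6e-05). Herpud1 carries ERSE-II in its promoter window and Dnajb9 only CCACG, and in LPS+CPZ the Herpud1 level was 2.51-fold lower and the Dnajb9 level 3.68-fold higher than in LPS. Dnajb11, which also carries ERSE-II, had a log2 change of -0.28 there, and 0.02 after median-ratio scaling. CCACG was present in 23 of the 28 genes with a window. A link between these elements and the direction of change was not tested.

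Sel1l and Syvn1 encode the adaptor SEL1L and the ubiquitin ligase HRD1, which form the core of the channel for misfolded proteins. Sel1l had 3.78, 2.67 and 4.35 FPKM in LPS+EtOH, 7.34, 7.06 and 7.01 FPKM in LPS+CPZ and 19.0, 14.8 and 15.5 FPKM in LPS. Syvn1 had 7.11, 5.91 and 6.17 FPKM in LPS+EtOH, 7.20, 9.40 and 10.1 FPKM in LPS+CPZ and 18.03, 21.6 and 20.9 FPKM in LPS. For both genes all 6 treated libraries lay below the 3 LPS libraries. Their log2 changes in LPS+CPZ against LPS were -1.09 ± 0.15 (adjusted p = 0.000108) and -1.10 ± 0.14 (adjusted p = 5.55e-05), and in LPS+EtOH against LPS -1.93 ± 0.15 (adjusted p = 6.99e-07) and -1.52 ± 0.14 (adjusted p = 2.07e-06). After median-ratio scaling all 4 of these calls held, with changes of -0.78 and -0.79 in LPS+CPZ and of -0.98 and -0.52 in LPS+EtOH (adjusted p of 0.000194 to 0.00213). Syvn1 was higher in LPS+CPZ than in LPS+EtOH by 0.41 (adjusted p = 0.0199), a call lost after median-ratio scaling (-0.28) and without replicate 2 or 3 of either group, with adjusted p of 0.0531 to 0.0812.

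Edem1 and Edem2 encode lectin-like proteins that trim mannose from misfolded glycoproteins and mark them for removal, and they did not move alike. Edem2 had 5.45, 5.17 and 6.21 FPKM in LPS+EtOH, 10.04, 10.26 and 10.87 FPKM in LPS+CPZ and 5.62, 6.12 and 6.20 FPKM in LPS. LPS+CPZ lay above both other groups, and its log2 change against LPS was 0.71 ± 0.11 (adjusted p = 0.000175). Against LPS+EtOH it was 0.79 (adjusted p = 7.02e-05), and 0.10 after median-ratio scaling (adjusted p = 0.363). In LPS+EtOH against LPS Edem2 was not called as deposited (-0.08, adjusted p = 0.487). After median-ratio scaling it was higher than in LPS in both LPS+EtOH (0.86, adjusted p = 1.84e-05) and LPS+CPZ (0.96, adjusted p = 2.14e-05). With globin genes left out it was instead lower in LPS+EtOH than in LPS (-0.447, adjusted p = 0.00327). Edem1 averaged 11.2 ± 1.7 FPKM in LPS+EtOH, 18.4 ± 0.05 in LPS+CPZ and 22.7 ± 1.3 in LPS (SD, n = 3 each). Its log2 change was -0.97 ± 0.12 in LPS+EtOH against LPS (adjusted p = 2.23e-05; 0.06, adjusted p = 0.616, after median-ratio scaling) and -0.29 ± 0.12 in LPS+CPZ against LPS (adjusted p = 0.0568).

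The derlins, membrane proteins of the same channel, were lowest in LPS+EtOH. Derl1 averaged 23.9 ± 2.1 FPKM in LPS+EtOH, 46.4 ± 3.5 in LPS+CPZ and 44.4 ± 2.6 in LPS, and Derl2 averaged 1.85 ± 0.41 FPKM in LPS+EtOH, 3.83 ± 0.32 in LPS+CPZ and 4.11 ± 0.23 in LPS. Against LPS, Derl1 had a log2 change of -0.87 in LPS+EtOH (adjusted p = 3.18e-05) and Derl2 one of -0.85 (adjusted p = 8.41e-05), but after median-ratio scaling these were 0.19 and -0.05 and neither was called. Derl3, the derlin best known from secretory tissues, was at 0.097 to 0.280 FPKM in LPS+EtOH, 0.393 to 0.665 FPKM in LPS+CPZ and 0.332 to 0.431 FPKM in LPS and was not tested. Selenos, a selenoprotein that binds derlins, had 5.35, 4.09 and 6.13 FPKM in LPS+EtOH, 13.2, 16.5 and 20.2 FPKM in LPS+CPZ and 12.1, 11.3 and 12.1 FPKM in LPS. Its log2 change in LPS+CPZ against LPS was 0.44 ± 0.17 (adjusted p = 0.036), and the call was lost without any 1 LPS library or without LPS+CPZ replicate 2 or 3, with adjusted p of 0.061 to 0.144.

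Translocation and transport were represented by 4 genes, of which 3 were lower in LPS+EtOH than in LPS (1 lower and 1 higher after median-ratio scaling), against 64.6% of all tested genes lower. Relative to LPS, LPS+CPZ had 1 higher and 1 lower (1 higher after scaling), and in LPS+CPZ against LPS+EtOH 3 were higher (1 higher and 1 lower after scaling). Sec24d, a cargo-binding subunit of the COPII coat, had 0.101, 0.037 and 0.123 FPKM in LPS+EtOH, 1.75, 1.69 and 2.82 FPKM in LPS+CPZ and 1.42, 1.15 and 1.18 FPKM in LPS. It was the least abundant tested gene, and its groups did not overlap. It reached 1 FPKM only in the LPS and LPS+CPZ libraries, so it was tested only through the groups where it was high. Its calls in comparisons with LPS+EtOH are therefore given as description only. The log2 change of -1.05 ± 0.14 in LPS+EtOH against LPS (adjusted p = 3.13e-05; -0.75, adjusted p = 0.000637, after scaling) compares with a 14.4-fold lower mean FPKM, which shows how the added 1 FPKM shrinks the change of a gene at this level. In LPS+CPZ against LPS its log2 change was 0.44 ± 0.14 (adjusted p = 0.0152), and this call was lost in 4 of the 16 settings, among them without the second LPS library (adjusted p = 0.053).

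The translocon subunits differed. Sec61a1, the pore, averaged 7.95 ± 1.62 FPKM in LPS+EtOH, 12.5 ± 0.71 in LPS+CPZ and 17.4 ± 0.73 in LPS, with a log2 change of -1.05 in LPS+EtOH against LPS (adjusted p = 3.27e-05; -0.05, adjusted p = 0.741, after median-ratio scaling). Sec61b, a small accessory subunit, averaged 8.83 ± 1.46 FPKM in LPS+EtOH, 7.59 ± 1.58 in LPS+CPZ and 7.47 ± 0.30 in LPS and was not called in any comparison as deposited. After median-ratio scaling its log2 change in LPS+EtOH against LPS was 1.19 (adjusted p = 2.48e-05). Ostc, a subunit of the oligosaccharyltransferase that adds sugar chains, averaged 4.83 ± 1.14 FPKM in LPS+EtOH, 8.28 ± 0.87 in LPS+CPZ and 9.70 ± 0.46 in LPS, and its log2 change of -0.89 in LPS+EtOH against LPS (adjusted p = 0.000179) was 0.06 after scaling (adjusted p = 0.685).

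Summed over the 33 genes, the level was 710, 648 and 706 FPKM in the LPS+EtOH libraries, 1043, 1098 and 1218 FPKM in the LPS+CPZ libraries and 1190, 1205 and 1154 FPKM in the LPS libraries. LPS+EtOH lay below both other groups, which overlapped. These sums were 0.197 ± 0.016% of total FPKM in LPS+EtOH, 0.330 ± 0.009% in LPS+CPZ and 0.366 ± 0.043% in LPS (SD, n = 3 each). By role, chaperones summed to 413 ± 12 FPKM in LPS+EtOH, 701 ± 62 in LPS+CPZ and 635 ± 24 in LPS. Degradation genes summed to 98.5 ± 12.4 FPKM in LPS+EtOH, 135 ± 3.9 in LPS+CPZ and 214 ± 9.2 in LPS. Genes of disulfide bond formation summed to 143 ± 17 FPKM in LPS+EtOH, 225 ± 21 in LPS+CPZ and 248 ± 5.9 in LPS, and those of transport to 21.7 ± 4.1 FPKM in LPS+EtOH, 30.4 ± 3.5 in LPS+CPZ and 35.8 ± 1.2 in LPS. In LPS+CPZ the sensor and degradation sums lay below all 3 LPS libraries, while the chaperone sums of 656, 675 and 772 FPKM lay above those of 645, 652 and 607 FPKM in LPS. As a percentage of total FPKM the chaperone sums overlapped, at 0.204, 0.200 and 0.215% in LPS+CPZ and 0.207, 0.216 and 0.167% in LPS. These sums are of FPKM as deposited and were not tested. Single genes weighed heavily in them. Mean FPKM in LPS and LPS+CPZ was 30.6 and 112.5 for Dnajb9, 100.2 and 39.96 for Herpud1, and 23.0 and 7.65 for Atf6. The sums are therefore not read as shifts of a whole role.

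**Figure D3:**
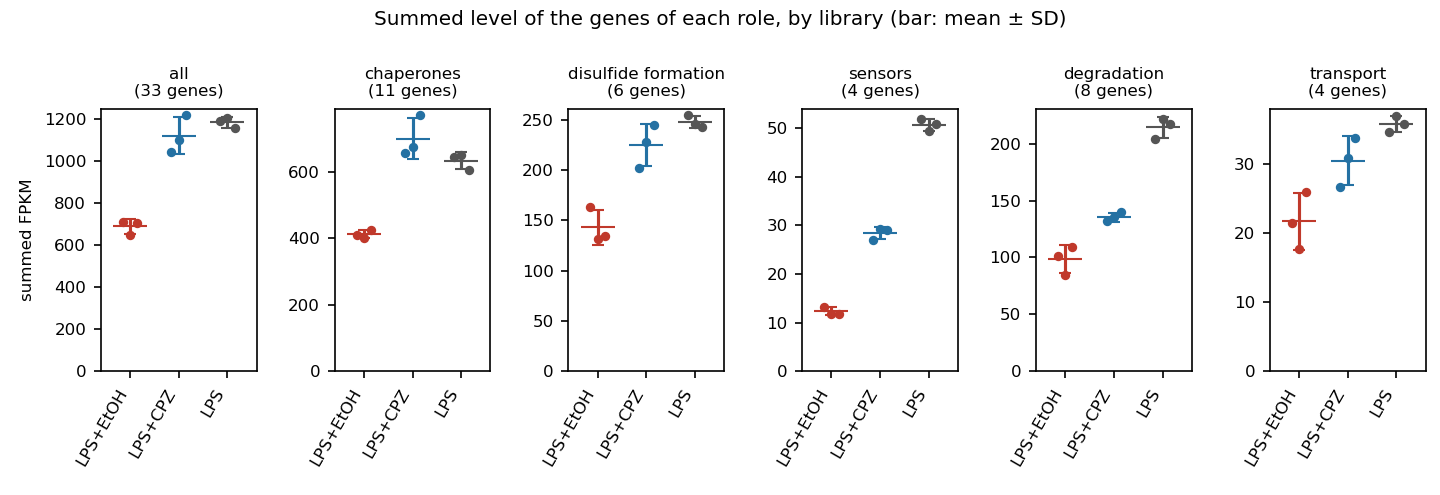
Summed FPKM of all 33 genes and of each role in the 9 libraries; points are libraries and bars the mean ± SD (n = 3). As deposited, LPS+EtOH is lowest in every panel, and LPS+CPZ lies below LPS for sensors (28.4 against 50.7 FPKM) and degradation (135 against 214 FPKM).

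The share that each gene takes of the 33 genes' summed FPKM does not depend on how libraries are scaled. Hspa5 took 25.1, 29.2 and 26.4% of it in LPS+EtOH, 16.6, 16.9 and 19% in LPS+CPZ and 17.5, 17.2 and 16% in LPS. The LPS+EtOH shares of Hspa5 thus lay above all others. P4hb took 13.4 ± 1.6% in LPS+EtOH, 7.49 ± 0.16% in LPS+CPZ and 5.72 ± 0.54% in LPS. Dnajb9 took 8.68 ± 0.67% and 10.1 ± 0.67% in the treated groups and 2.59 ± 0.20% in LPS. In LPS+EtOH all 3 libraries had a larger share of each of these genes than any LPS library. The shares of Calr (9.63 ± 0.13% against 13.6 ± 0.25%), Hsp90b1 (5.45 ± 0.32% against 8.12 ± 0.29%) and Canx (3.66 ± 0.32% against 5.81 ± 0.26%) were smaller in LPS+EtOH than in LPS, with no overlap.

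On the same scale Hyou1 took 0.792 ± 0.038% in LPS+EtOH, 2.56 ± 0.21% in LPS+CPZ and 1.26 ± 0.10% in LPS. Ern1 took 0.189 ± 0.026% in LPS+EtOH, 0.811 ± 0.055% in LPS+CPZ and 0.711 ± 0.079% in LPS. Atf6 took 0.638 ± 0.009% in LPS+EtOH, 0.687 ± 0.078% in LPS+CPZ and 1.95 ± 0.06% in LPS. Ero1lb took 0.250 ± 0.026% in LPS+EtOH, 0.667 ± 0.043% in LPS+CPZ and 1.63 ± 0.29% in LPS (SD, n = 3 each). Herpud1 took 6.65 ± 0.77% in LPS+EtOH, 3.59 ± 0.34% in LPS+CPZ and 8.47 ± 0.54% in LPS. LPS+EtOH had the lowest share of Hyou1 and Ern1, and LPS+CPZ the lowest share of Herpud1. For Atf6 the shares in LPS+EtOH and LPS+CPZ overlapped, and both lay below LPS.

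**Figure D4:**
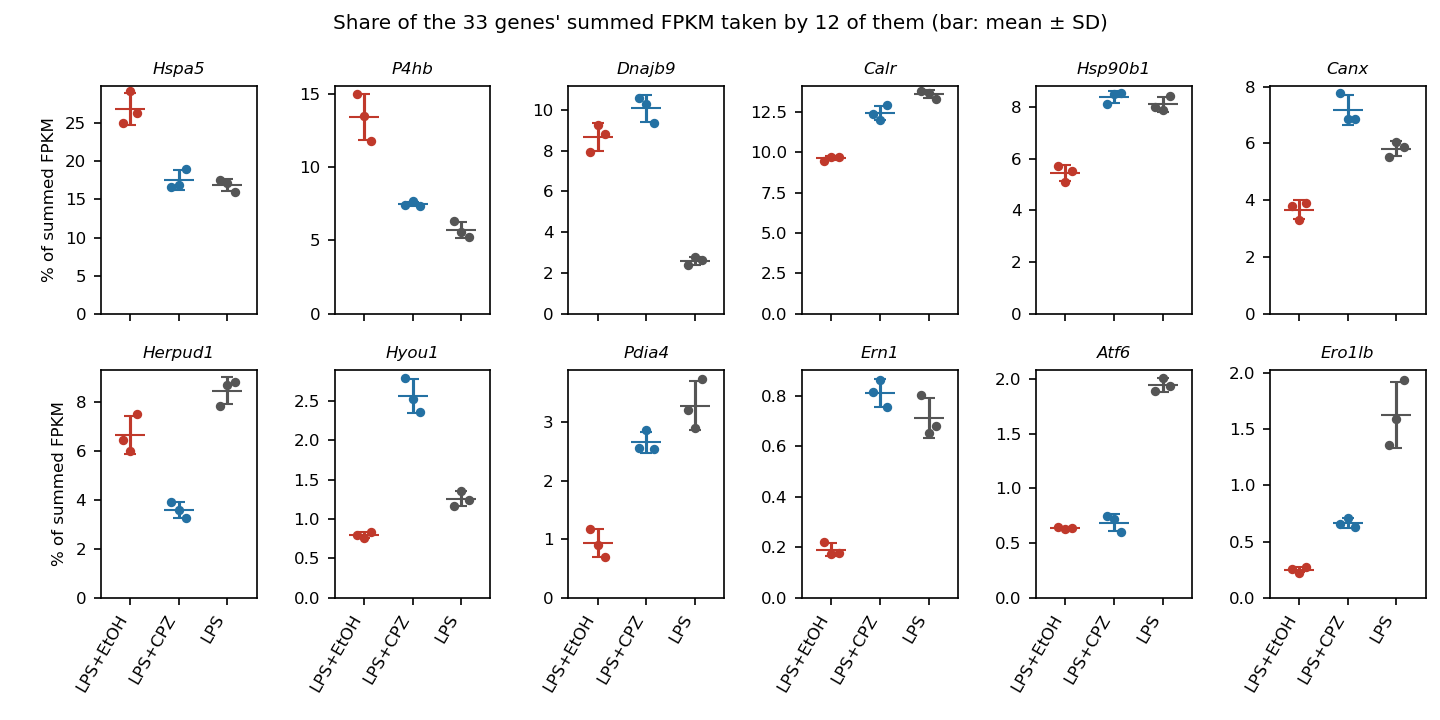
Share of the 33 genes' summed FPKM taken by 12 of them in each library; points are libraries and bars the mean ± SD (n = 3). Hspa5 and P4hb have their highest shares in LPS+EtOH (26.9% and 13.4%), Hyou1 has its highest share in LPS+CPZ (2.56%), and Dnajb9 has its lowest share in LPS (2.59%).

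The 9 tested genes with an exact match to the searched ERSE in their window were set beside the 17 tested genes whose window held no exact match. This is a description without a test, and inexact forms of the element were not searched. In LPS+EtOH against LPS 8 of the 9 were lower and none higher, with a median log2 change of -1.42, and of the 17 without it 12 were lower and 2 higher, with a median of -0.97, beside 64.6% of all tested genes lower. After median-ratio scaling 5 of the 9 were lower and 1, Hspa5, was higher (median -0.35), and 6 of the 17 were lower and 5 higher (median -0.04). Over all tested genes the shares after that scaling were 39.7% lower and 40.6% higher. Hspa5, with the ERSE shown above, was the one of the 9 that was not called as deposited. For LPS+CPZ against LPS, 4 of the 9 were lower and none higher (median -0.21), and 6 of the 17 were lower and 3 higher (median -0.25). Beside them, 48.4% of all tested genes were lower and 20.7% higher. After scaling the medians of the 9 and of the 17 were 0.10 and 0.07. For LPS+CPZ against LPS+EtOH, 8 of the 9 were higher (median 1.21), and 13 of the 17 were higher and 1 lower (median 0.84). After scaling 6 of the 9 were higher and 1 lower (median 0.49), and 6 of the 17 were higher and 4 lower (median 0.16). Of all tested genes 61.4% were higher and 15.2% lower in this comparison as deposited, and 34.3% and 33.7% after scaling. A matching sequence is not evidence that a factor was bound there.

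Other genes of the same pathways, taken from 5 lists with 136 genes in all, were counted in the same way. In LPS+EtOH against LPS 94 of the 125 tested were lower and 13 higher (60 and 42 after median-ratio scaling), with a median log2 change of -1.12 (-0.27 after scaling). Over all tested genes the shares were 64.6% lower and 19% higher as deposited and 39.7% and 40.6% after scaling. The list of translocation and glycosylation genes had 34 of 37 lower and none higher (25 and 3 after scaling, median -0.66). The list of unfolded protein response signalling had 10 of 23 lower and 5 higher as deposited (median -0.25), but 9 lower and 14 higher after scaling (median 0.82). Relative to LPS, LPS+CPZ had 56 of the 125 lower and 24 higher (31 and 36 after scaling), with a median of -0.28, beside 48.4% and 20.7% of all genes. Relative to LPS+EtOH, it had 99 higher and 9 lower (65 and 23 after scaling), with a median of 0.90, beside 61.4% and 15.2% of all genes.

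The genes downstream of PERK and of the amino acid response differed from each other. Trib3, a pseudokinase induced by ATF4 and CHOP, had 1.53, 0.696 and 0.968 FPKM in LPS+EtOH, 24.7, 35.5 and 38.8 FPKM in LPS+CPZ and 45.7, 56.0 and 44.0 FPKM in LPS. Asns, asparagine synthetase and a target of ATF4, had 1.87, 1.42 and 1.70 FPKM in LPS+EtOH, 32.3, 37.7 and 44.2 FPKM in LPS+CPZ and 37.3, 36.0 and 34.0 FPKM in LPS. Both lay far below the other groups in LPS+EtOH, with log2 changes against LPS of -4.60 ± 0.20 (adjusted p = 3.49e-08) and -3.79 ± 0.13 (adjusted p = 2.26e-08), and -3.79 and -2.92 after median-ratio scaling (adjusted p = 1.11e-07 and 6.89e-08).

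Ppp1r15a, which encodes GADD34, the phosphatase subunit that reverses the action of PERK, moved the other way. It had 476, 553 and 464 FPKM in LPS+EtOH, 380, 353 and 353 FPKM in LPS+CPZ and 167, 161 and 155 FPKM in LPS, and its log2 change in LPS+EtOH against LPS was 1.62 ± 0.12 (adjusted p = 4.89e-07; 2.72, adjusted p = 1.94e-07, after scaling). Ddit3, which encodes CHOP, had 51.4, 55.1 and 55.7 FPKM in LPS+EtOH, 134, 126 and 153 FPKM in LPS+CPZ and 42.9, 53.7 and 48.9 FPKM in LPS. LPS+CPZ stood above both other groups for Ddit3, with a log2 change against LPS of 1.49 ± 0.13 (adjusted p = 3.73e-06). Atf3, a stress-induced transcription factor, averaged 349 ± 33 FPKM in LPS+CPZ and 113 ± 9.8 in LPS, with a log2 change of 1.62 ± 0.13 (adjusted p = 2.44e-06). After median-ratio scaling the changes of Ddit3 and Atf3 in LPS+CPZ against LPS were 1.796 and 1.933. In LPS+EtOH against LPS neither Ddit3 nor Atf3 was called as deposited (adjusted p = 0.256 and 0.193). Both were called higher there after that scaling, with log2 changes of 1.236 (adjusted p = 1.33e-05) and 1.275 (adjusted p = 9.5e-06).

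Ero1l encodes the other ER oxidase, ERO1-alpha, and its levels ran differently from those of Ero1lb. It had 24.8, 17.8 and 23.4 FPKM in LPS+EtOH, 285, 205 and 246 FPKM in LPS+CPZ and 23.5, 21.3 and 22.3 FPKM in LPS. Its log2 change was 3.39 ± 0.16 in LPS+CPZ against LPS (adjusted p = 1.03e-07) and 3.42 ± 0.16 in LPS+CPZ against LPS+EtOH (adjusted p = 1.54e-07), while Ero1lb was lower in LPS+CPZ than in LPS. Qsox1, a secreted sulfhydryl oxidase, averaged 31.5 ± 7.1 FPKM in LPS+EtOH, 12.2 ± 2.5 in LPS+CPZ and 3.66 ± 1.37 in LPS. Ubxn8, a membrane adaptor for the p97 ATPase, averaged 16.9 ± 2.2 FPKM in LPS+EtOH, 45.7 ± 7.0 in LPS+CPZ and 7.96 ± 0.43 in LPS, and its log2 change in LPS+CPZ against LPS was 2.37 ± 0.14 (adjusted p = 3.19e-07). After median-ratio scaling this Ubxn8 change was 2.64 (adjusted p = 4.49e-07).

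In the early secretory pathway, Spcs3, a signal peptidase subunit, averaged 2.23 ± 0.42 FPKM in LPS+EtOH, 11.9 ± 1.2 in LPS+CPZ and 22.3 ± 3.4 in LPS. Its log2 change of -2.85 ± 0.15 in LPS+EtOH against LPS (adjusted p = 7.06e-08) was close in size to that of Stt3b, a catalytic subunit of oligosaccharyltransferase (-2.83 ± 0.19, adjusted p = 2.51e-07). After median-ratio scaling these were -1.94 and -1.83 (adjusted p = 4.14e-07 and 3.53e-06). Surf4, a cargo receptor for export from the ER, averaged 124 ± 7.6 FPKM in LPS+EtOH, 91.1 ± 6.3 in LPS+CPZ and 65.6 ± 9.7 in LPS. It was the only one of the 15 genes of the COPII list that was higher in LPS+EtOH than in LPS as deposited (5 were after median-ratio scaling), with a log2 change of 0.92 ± 0.13 (adjusted p = 5.79e-05; 2.01, adjusted p = 1.07e-06, after scaling).

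**Figure D5:**
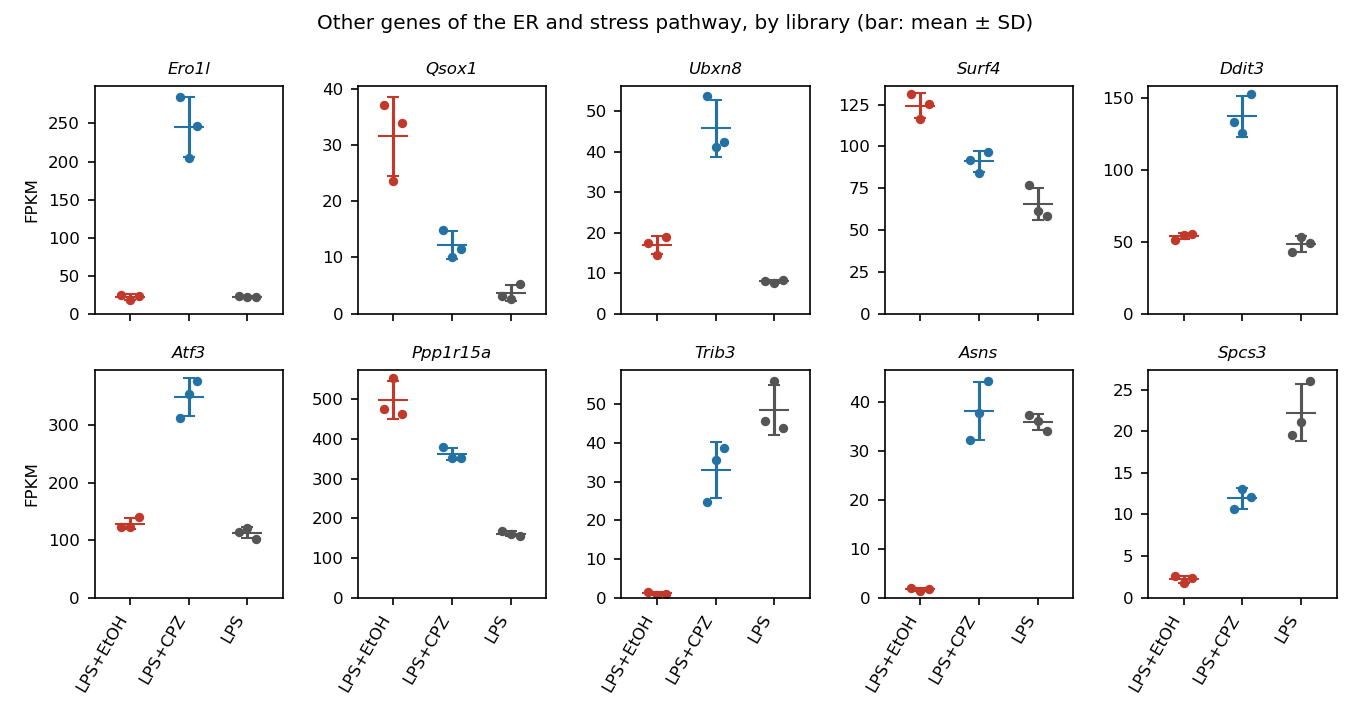
FPKM of 10 other genes of ER folding, degradation, transport and stress signalling in the 9 libraries; points are libraries and bars the mean ± SD (n = 3). Ero1l, Ddit3 and Atf3 are highest in LPS+CPZ, Qsox1, Surf4 and Ppp1r15a are highest in LPS+EtOH, and Trib3, Asns and Spcs3 are lowest in LPS+EtOH.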

How the data were processed

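The authors deposited FPKM values per gene for 9 strand-specific TruSeq libraries. FastQC 0.11.2, STAR, StringTie and a human build, hg38, are listed in the submitters' processing notes. Of the 55335 gene IDs, 55154 are mouse IDs of GENCODE M21, so no coordinates come from the expression files. At most 24.6% of low values were within 2% of whole multiples of a step, so fragments were not recovered and counting error is unknown. A gene was tested if 3 or more libraries had 1 FPKM or more. Values of log2(FPKM + 1) were compared in limma (version 3.58.1, R version 4.3.3) with a linear model on group in all 9 libraries and moderated variances with a mean trend. Tests were two-sided, with Benjamini-Hochberg adjustment over all tested genes and a threshold of 0.05. P-values measure the spread between pools, which may be partly technical. Exact tests of 3 against 3 libraries cannot go below 0.1 and were not used. The genes, lists and tests were chosen with earlier results of these data known. Every member is named. The pathway lists could supply the 2 largest rises and falls past the threshold per comparison, if groups did not overlap and the higher mean was 5 FPKM or more. Alternatives were a pseudocount of 0.1, no filter, median-ratio and TPM scaling, globin genes left out, only the groups compared, a replicate block and each library left out. RefSeq promoter windows were searched for exact motif matches.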

Additional observations from a re-analysis of the deposited data

How the results depend on the processing

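Each gene's change was recomputed under 16 alternative settings. The pseudocount of 0.1, the absence of a filter, the fit of only the groups compared and the fit with a replicate block reversed none of the 99 gene changes (33 genes, with Selenos, in 3 comparisons). Median-ratio scaling reversed 25, leaving out globin genes 7 and TPM scaling 2. Whether libraries of the same replicate number were paired could not be settled. The correlation of their deviations was -0.01 to 0.26, and in 10 of 18 checks a library correlated best with the one of its own number. The replicate block changed the call of 1 gene, Dnajb11 in LPS+CPZ against LPS (adjusted p = 0.0565), and gave 28, 15 and 28 called genes in LPS+EtOH against LPS, LPS+CPZ against LPS and LPS+CPZ against LPS+EtOH, against 28, 16 and 28 without it.

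With a log2 change of at least 1 also required, LPS+EtOH against LPS gave 18 called genes with 0 higher, and 6267 of all genes. LPS+CPZ against LPS then gave 6 (1 higher, 5 lower), 19 on the pathway lists and 3155 of all genes. LPS+CPZ against LPS+EtOH gave 14 (14 higher, 0 lower), 54 on the pathway lists and 3665 of all genes. Median-ratio scaling gave 7 higher and 13 lower, 10 higher and 7 lower, and 18 called (13 higher, 5 lower) in the same order. TPM scaling and leaving out globin genes each left 1 gene higher in LPS+EtOH against LPS, and leaving out globin genes gave 25 called (22 lower) in LPS+CPZ against LPS. With 1 library left out, 1 to 2 genes were higher in LPS+EtOH against LPS, the lower count being without LPS+EtOH replicate 1.

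Under median-ratio scaling the log2 change in LPS+EtOH against LPS reversed to 0.003 for Xbp1, 0.193 for Derl1, 0.027 for Sdf2l1, 0.166 for Creld2, 0.980 for Hspa5, 0.821 for Dnajc10, 0.059 for Edem1, 0.386 for Manf, 0.859 for Edem2 and 0.061 for Ostc. For LPS+CPZ against LPS it reversed to 0.105 for Calr, 0.020 for Dnajb11, 0.166 for Derl2, 0.286 for Hsp90b1, 0.287 for Hspa5, 0.070 for Pdia3, 0.019 for Edem1, 0.253 for Manf and 0.079 for Ostc. For LPS+CPZ against LPS+EtOH it reversed to -0.341 for Xbp1, -0.278 for Syvn1, -0.694 for Hspa5, -0.098 for Sec61a1, -0.040 for Edem1 and -0.132 for Manf. This scaling sets the median change of all genes near 0, which by construction moves every gene of a comparison the same way.

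With globin genes left out, Sec61b reversed to -0.171 in LPS+EtOH against LPS. In LPS+CPZ against LPS Canx reversed to -0.155, Ern1 to -0.240, Derl1 to -0.308 (adjusted p = 0.0365), Creld2 to -0.048, P4hb to -0.063 and Sec61b to -0.333, and under TPM scaling Derl1 reversed to -0.001 and Sec61b to -0.053. With 1 library left out, reversals in LPS+CPZ against LPS were confined to changes that were not called: Hsp90b1 (-0.107 to 0.040), Hspa5 (-0.154 to 0.052), Manf (-0.155 to 0.072) and Sec61b (-0.084 to 0.166). The change of Hspa5 in LPS+CPZ against LPS+EtOH ranged from -0.042, without LPS+CPZ replicate 3, to 0.164. The cause of the changes with globin genes left out, under TPM scaling and without single libraries was not tested. Of 891 gene changes with 1 library left out, 855 kept direction and call. The deposited values give no read depth, so differences in low genes such as Sec24d and Derl3 carry an unknown counting error.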
